A study of Daphnia magna with 12 samples.

Results

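A set of 335 genes of the water flea Daphnia magna was described that were expressed in unexposed animals and in animals exposed to C2mimCl, and were low after both C12mimCl and CholCl. They were chosen on measured levels in CPM (read counts per gene scaled to a common library size). A gene belonged to the set if its control median over 3 libraries was at least 10 CPM, its C12mimCl and CholCl medians were both at most 12.5% of the control median, and its C2mimCl median was above 50% of it, with 0.1 CPM added to each median. The set held 335 of 46334 gene rows in all, and of 8647 genes that met the control minimum. Because levels in all 4 groups entered the choice, the difference of each salt from control, and of C12mimCl or CholCl from C2mimCl, is given below as a description without a test. The comparison of C12mimCl with CholCl was tested, since the choice put a ceiling on both and did not say which was lower. That ceiling was on medians of the same libraries, so a single library of a group could lie above it. The test is therefore not independent of the choice.

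Messenger RNA of whole bodies, at a stage labelled 48 h, was sequenced in 12 libraries, 3 for each of 4 groups. Controls were kept in blank ASTM medium, and the other groups were kept for 48 h in medium with 1-ethyl-3-methylimidazolium chloride (C2mimCl), 1-dodecyl chloride-3-methylimidazolium as the labels name it (C12mimCl), or cholinium chloride (CholCl), each at its EC20. An EC20 is a concentration with 20% of a measured effect. Neither that endpoint nor any concentration is given in these sources. All groups came from third-brood neonates less than 10 h old, were not fed, and shared the same bulk cultures. Each library is a pool of 90 animals that were still active, taken from 1 vessel of 120 in 500 mL, so the values describe active animals only, averaged over all tissues.

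C2mimCl and C12mimCl are imidazolium ionic liquids, salts of an organic ring cation, that differ in the length of the alkyl chain on the ring. A long chain gives such a cation the character of a surfactant, and long-chain imidazolium salts are known for disturbing cell membranes. Cholinium is choline, a quaternary ammonium ion that animals use to make membrane phospholipids and the transmitter acetylcholine. The files identify genes by number, and none of the numbers matched the RefSeq table of this species (0 of 335), so no function is given for any gene and no sequence is shown.

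Libraries held 12502019 to 15539051 reads in genes. Reads assigned to no gene were 5.25% to 10.1% of a library. The libraries of 1 group did not sit equally close together in these genes. Control replicate 2 and C2mimCl replicate 1 were low, and C12mimCl replicate 3 and CholCl replicate 3 were high, each against the other libraries of its own group. The median ratio of the set to control without each of them is given beside the ratio. The comparison of C12mimCl with CholCl is also given without each C12mimCl and each CholCl library.

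The set took a far smaller share of reads after C12mimCl and CholCl. Together the 335 genes took 5.39%, 3.47% and 5.94% of the reads in genes in control replicates 1, 2 and 3. After C2mimCl they took 1.96%, 9.11% and 8.09%. After C12mimCl they took 0.103%, 0.0863% and 0.246%, and after CholCl 0.221%, 0.091% and 0.613%. The choice of genes used all 4 groups, so nothing is read from the distance between them. The widest 95% Wilson interval of these shares, for C2mimCl replicate 2, was 9.09% to 9.12%, which covers counting error only. In whole-body RNA, fewer cells of a type and less RNA per cell cannot be told apart.

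**Figure D1:**
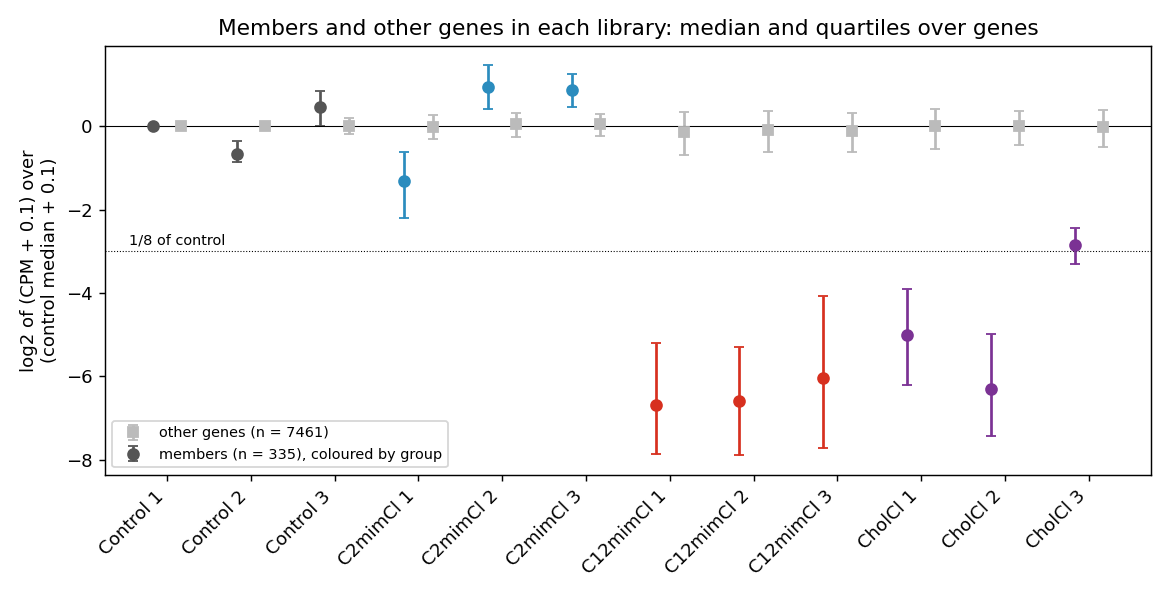
Level of the 335 genes (circles, coloured by group) and of 7461 other genes (grey squares) in each of the 12 libraries, as the log2 ratio of CPM plus 0.1 to the control median plus 0.1. Symbols are medians over genes and bars run from the lower to the upper quartile. The 335 genes sit at -1.31 in C2mimCl replicate 1 and at 0.94 and 0.87 in the other C2mimCl libraries, and at -2.84 in CholCl replicate 3, close to the dotted line at 1/8 of control.

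Per gene, the control median ranged from 9.99 to 3392 CPM, with a median over the set of 50.1 CPM. The C2mimCl medians ran from 8.93 to 5436 CPM with a median of 75 CPM. The C12mimCl medians ran from 0 to 119 CPM with a median of 0.379 CPM, and the CholCl medians from 0 to 226 CPM with a median of 1.31 CPM. As ratios of group medians with the 0.1 CPM added, the genes were lower by a median of 91.7-fold after C12mimCl and 29.9-fold after CholCl. With the same genes, these medians were 118-fold and 40.8-fold without control replicate 2. The C12mimCl median was 89.8-fold without C12mimCl replicate 3, and the CholCl median was 42.9-fold without CholCl replicate 3. The added 0.1 CPM limits the fold that a gene of low abundance can reach and so understates it there.

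A median below 1 CPM was found for 225 genes after C12mimCl, for 143 after CholCl and for 135 after both. Reads were absent from all 3 C12mimCl libraries for 28 genes. No gene of the set was without reads in all 3 CholCl libraries, and in CholCl replicate 3 each of the 335 had at least 1 read. After C12mimCl, 30 genes were 8-fold to 16-fold lower than in controls, 112 were 16-fold to 64-fold lower and 193 were lower by 64-fold or more. After CholCl these counts were 94, 155 and 86. Of the set, 81 genes were lower by 64-fold or more after both salts.

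The genes were also divided by their abundance in controls, where the limit of 12.5% holds for each of them by choice. The 126 genes under 30 CPM in controls were lower by a median of 68.5-fold after C12mimCl and 29.8-fold after CholCl. For the 116 genes from 30 to 100 CPM these medians were 78.0-fold and 32.9-fold, and for the 85 genes from 100 to 1000 CPM they were 181-fold and 27.2-fold. The 8 genes at 1000 CPM or more were lower by a median of 59.6-fold and 17.5-fold. They held 26.2% of the summed control medians of the set, and the 50 most abundant held 67.6%.

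The most abundant gene of the set, Dapma7bEVm015207, had 3392, 2029 and 6128 CPM in the controls and 735, 9487 and 5436 CPM after C2mimCl. It had 112, 71.5 and 437 CPM after C12mimCl, and 226, 29.3 and 493 CPM after CholCl. The C12mimCl and CholCl libraries overlapped each other, and all 6 were below the lowest of the other libraries, C2mimCl replicate 1.

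Dapma7bEVm000751 had 1725, 1018 and 2103 CPM in the controls, 405, 4611 and 3369 CPM after C2mimCl, 18.7, 22.2 and 25.1 CPM after C12mimCl, and 112, 11.6 and 210.0 CPM after CholCl. Its C12mimCl libraries lay close together, whereas CholCl replicate 2 was below them and the other CholCl libraries above. Dapma7bEVm001627 had 1591, 1009 and 1782 CPM in the controls, 351, 3218 and 2688 CPM after C2mimCl, 119, 67.7 and 192 CPM after C12mimCl, and 89.4, 9.49 and 145 CPM after CholCl. Here again CholCl replicate 2 was the lowest of the 12 libraries. Dapma7bEVm001289 had 1302, 811 and 1300.5 CPM in the controls and 413, 2363 and 2111 CPM after C2mimCl. After C12mimCl it had 77.2, 63.4 and 125 CPM, and after CholCl 75, 33 and 131 CPM, so that these groups overlapped.

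Dapma7bEVm000704 had 1289.9, 918 and 1885 CPM in the controls, 376, 3751 and 2375 CPM after C2mimCl, 30.8, 21.9 and 98.8 CPM after C12mimCl, and 142, 55.2 and 193 CPM after CholCl. The highest C12mimCl library was replicate 3, which lay within the range of CholCl. Dapma7bEVm002066 had 1398, 967 and 1111 CPM in the controls, 536, 1883 and 1970.0 CPM after C2mimCl, 4.04, 7.18 and 3.11 CPM after C12mimCl, and 9.45, 5.16 and 114 CPM after CholCl. Dapma7bEVm009524 had 1082, 451 and 1525 CPM in the controls, 330.0, 2058 and 1654 CPM after C2mimCl, 4.79, 14.2 and 5.17 CPM after C12mimCl, and 37.1, 2.41 and 102 CPM after CholCl. In both genes CholCl replicate 3 stood above the other exposed libraries of C12mimCl and CholCl.

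The largest ratio among the 8 was that of Dapma7bEVm029332. It had 1556, 1031 and 916 CPM in the controls and 796, 2339 and 2356 CPM after C2mimCl. Only 4, 7 and 5 reads were left after C12mimCl (0.252, 0.529 and 0.38 CPM). After CholCl it had 39, 3 and 1393 reads (2.88, 0.206 and 111 CPM). Its ratio of group medians was 2149-fold for C12mimCl and 346-fold for CholCl, and CholCl replicate 3 was far above the other CholCl libraries.

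**Figure D2:**
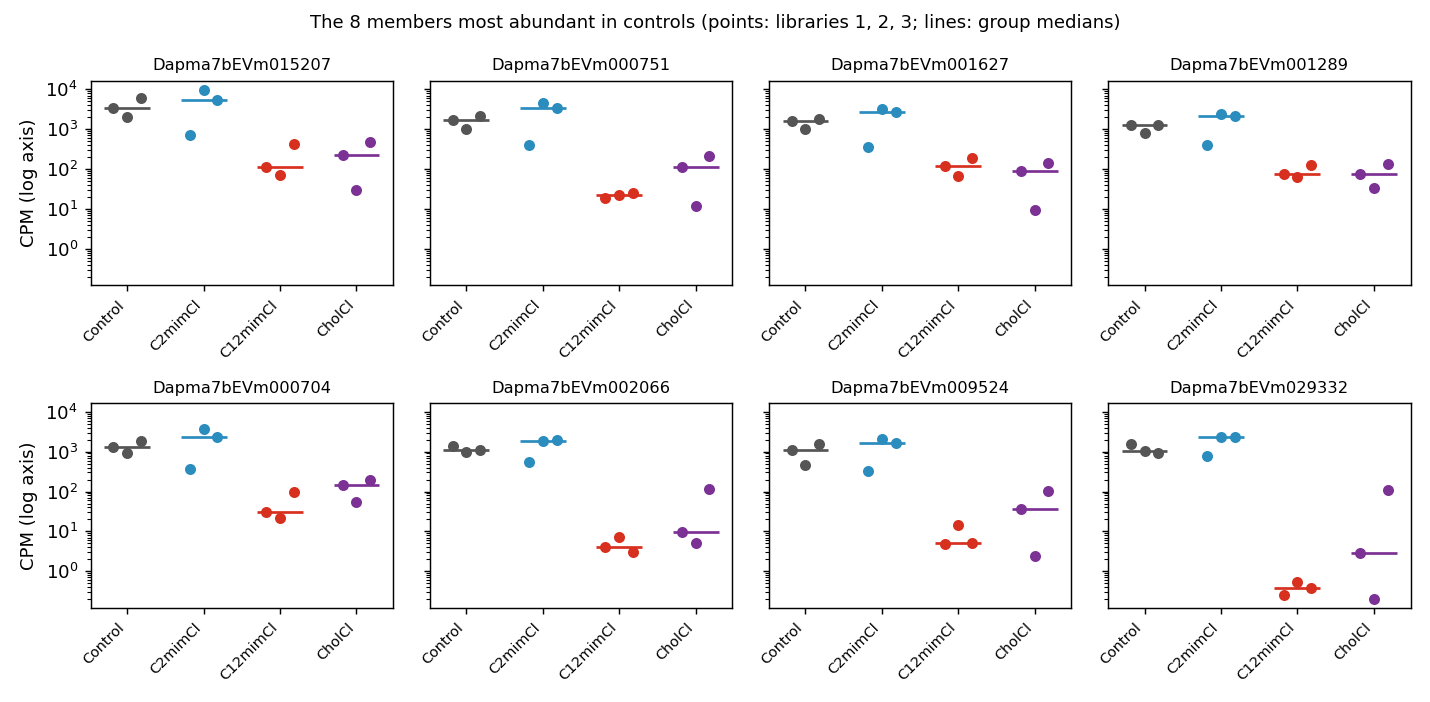
CPM on a log axis of the 8 genes of the set with the highest control medians, 1 panel a gene. Points are libraries 1, 2 and 3 of each group from left to right, and lines are group medians. The control and C2mimCl points lie above the C12mimCl and CholCl points in each panel, and the second CholCl point is the lowest of its group.

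Among the genes with no reads after C12mimCl, Dapma7bEVm020058 had the highest control median. It had 134, 70.2 and 122 CPM in the controls, 45.3, 234 and 242 CPM after C2mimCl, and 21, 1 and 166 reads after CholCl. With the control reads pooled over 3 libraries, scaled to library size, and set against a floor of 3 reads over the C12mimCl group, it was at least 1526-fold lower after C12mimCl than in controls. Dapma7bEVm018424 had 134, 87.7 and 68.1 CPM in the controls, 53.4, 171 and 190.1 CPM after C2mimCl, and 3, 1 and 148 reads after CholCl. By the same measure it was at least 1395-fold lower after C12mimCl. Dapma7bEVm018562 had 122, 86.8 and 79.8 CPM in the controls, 51.8, 275 and 303 CPM after C2mimCl, and 1, 0 and 92 reads after CholCl, and was at least 1376-fold lower after C12mimCl. In all 3 genes nearly all reads left after CholCl were those of replicate 3.

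For 334 genes every C12mimCl library lay below every control library, and for 334 every CholCl library did. Over the 15847 genes tested the shares were 27.8% and 32.5%, and nothing is read from the difference because the choice used these contrasts. The exceptions were Dapma7bEVm015331 for C12mimCl and Dapma7bEVm000745 for CholCl, noted after their values were seen. The former had 28.7, 17.2 and 75.1 CPM in the controls and 3.03, 0.832 and 17.5 CPM after C12mimCl, where replicate 3 just passed the lowest control. The latter had 17.5, 10.2 and 46.4 CPM in the controls and 1.70, 0.619 and 10.6 CPM after CholCl, again with replicate 3 above the lowest control. For 269 genes all 6 C12mimCl and CholCl libraries lay below all 6 control and C2mimCl libraries, against 5.48% of the genes tested. The choice used these groups too. The other genes of the set were not apart in this way, and for Dapma7bEVm000745 and Dapma7bEVm015331 the C2mimCl replicate 1 values, 0.366 and 0.122 CPM, were as low as those after C12mimCl or CholCl.

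**Figure D3:**
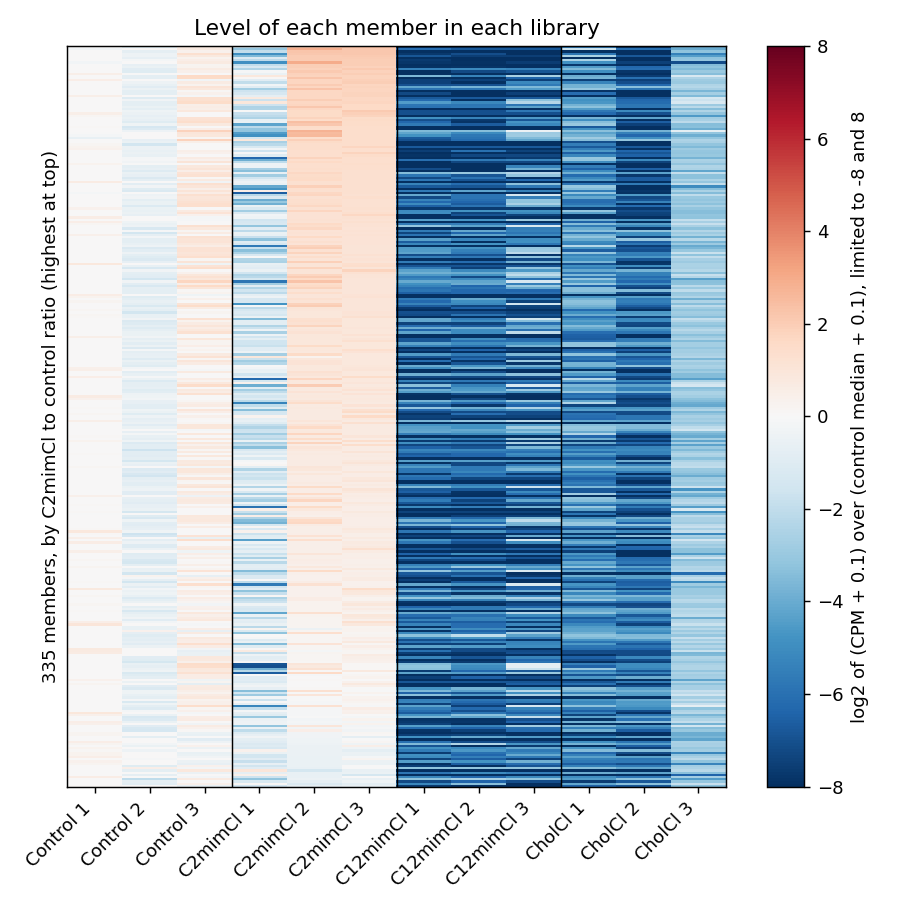
Level of each of the 335 genes (rows, ordered by the C2mimCl to control ratio) in each library (columns), as the log2 ratio of CPM plus 0.1 to the control median plus 0.1, with colours limited to -8 and 8. The C12mimCl columns and CholCl replicate 2 are dark blue for most rows, CholCl replicate 1 is lighter, CholCl replicate 3 is pale blue throughout, and C2mimCl replicate 1 is blue where C2mimCl replicates 2 and 3 are red.

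The choice asked only that C2mimCl stay above 50% of control, but most of the genes lay above the control median. The ratio of the C2mimCl to the control median ran from 0.578 to 4.74, with a median of 1.66. For the 7461 other genes that met the control and C2mimCl limits the median ratio was 1.03, for the 39 genes low after C12mimCl alone it was 1.33, and for the 83 low after CholCl alone it was 0.664. Of the set, 105 genes had a ratio of 2 or more, 185 lay between 1 and 2, and 45 lay below 1. The median ratio depended on single libraries. Leaving out control replicate 1, 2 or 3 gave 1.56, 1.30 or 2.01. Leaving out C2mimCl replicate 1 gave 1.92, and leaving out replicate 2 or 3 gave 1.15 or 1.17.

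The level above control was a feature of C2mimCl replicates 2 and 3, and replicate 1 went the other way. In replicates 2 and 3 the genes were at a median of 1.92 and 1.82 times the control median, and in replicate 1 at 0.404 times. The 83 genes low after CholCl alone were at 0.415 times in replicate 1, and at 0.700 and 0.774 in replicates 2 and 3. The 39 low after C12mimCl alone were at 0.834 times in replicate 1, and at 1.52 and 1.39 in replicates 2 and 3. Both replicates 2 and 3 lay above every control library for 184 genes of the set (54.9%), against 22.7% of the genes tested. Replicate 1 lay below every control library for 246 (73.4%), against 34.3%. Both held at once for 142 genes (42.4%), against 7.89%. These shares are descriptions, since C2mimCl and control medians entered the choice. Every C2mimCl library lay above every control library for 1 gene of the set, against 8.29% of the genes tested. That gene was Dapma7bEVm004974, named after its values were seen, with 55.5, 39.1 and 56.5 CPM in the controls and 76.9, 102 and 80.2 CPM after C2mimCl.

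The highest ratio was that of Dapma7bEVm001810, with 126, 64.7 and 207 CPM in the controls and 39.9, 599 and 655 CPM after C2mimCl. It had 4, 0 and 0 reads after C12mimCl and 34, 4 and 98 after CholCl. Dapma7bEVm006468 came next, with 9.31, 10.8 and 17.9 CPM in the controls and 1.16, 80.9 and 49.6 CPM after C2mimCl. Both were above the controls in C2mimCl replicates 2 and 3 and below them in replicate 1. At the other end, Dapma7bEVm010441 had 288, 269 and 179 CPM in the controls and 92.7, 156 and 182 CPM after C2mimCl, with a ratio of 0.578. Dapma7bEVm010311, with a ratio of 0.588, had 74.1, 41.0 and 97.7 CPM in the controls and 79.2, 33.4 and 43.6 CPM after C2mimCl, and was 1 of 7 genes highest of the C2mimCl libraries in replicate 1.

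**Figure D4:**
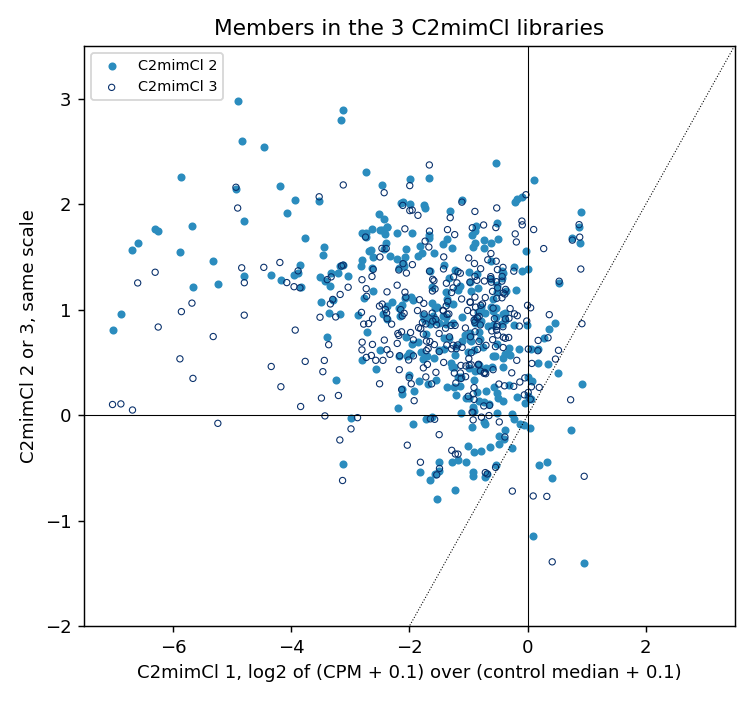
The 335 genes in the 3 C2mimCl libraries, as log2 ratios of CPM plus 0.1 to the control median plus 0.1. Each gene is plotted by its value in replicate 1 (horizontal axis) against its value in replicate 2 (filled) and in replicate 3 (open). Most points lie left of 0 and above 0, and the dotted line marks equal values.

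Within each group the same libraries were low or high for most of the genes. The choice used the median of each group and not the order of its libraries. Of the 335 genes, 289 (86.3%) were lowest of the controls in replicate 2, against 35.3% of the 7461 other genes, 59.0% of the 39 genes that were low after C12mimCl alone by the same limits and 7.23% of the 83 low after CholCl alone. In C2mimCl, 324 (96.7%) were lowest in replicate 1, against 47.2%, 84.6% and 65.1% of those 3 sets in the same order. In CholCl, 313 (93.4%) were highest in replicate 3, against 27.2%, 38.5% and 88.0%. There 250 (74.6%) were lowest in replicate 2, against 33.7%, 23.1% and 51.8%. In C12mimCl 179 (53.4%) were highest in replicate 3, against 34.3%, 17.9% and 78.3%, so the genes low after CholCl alone had the larger share there. Replicate 3 was also most often the highest library of the controls, for 242 genes (72.2%), against 43.3%, 20.5% and 74.7%. In C2mimCl it was highest for 169 (50.4%), against 24.3%, 23.1% and 39.8%, and replicate 2 for 159 (47.5%). Replicate 3 was thus the most frequent highest library of the set in each group. Genes share their libraries, so these shares are descriptions and are not tested.

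The distance between libraries of a group was read in the same way. The median ratio of the highest to the lowest library was 2.30 among controls, against 1.32 for other genes, and 5.11 after C2mimCl, against 1.39. It was 2.43 after C12mimCl, against 1.22, and 11.5 after CholCl, against 1.16. In the 39 genes low after C12mimCl alone, these medians were 1.74, 1.83, 1.99 and 1.19 in the order control, C2mimCl, C12mimCl and CholCl. In the 83 genes low after CholCl alone they were 2.28, 3.62, 2.64 and 4.16.

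The share of reads assigned to no gene moved against these levels within the groups, with an exception in CholCl. It was 7.87%, 8.39% and 6.32% in control replicates 1, 2 and 3, 7.61%, 5.83% and 6.14% after C2mimCl, 9.83%, 10.1% and 8.11% after C12mimCl, and 5.83%, 5.51% and 5.25% after CholCl. The control and C2mimCl libraries with the lowest levels of the set had the highest share in their group, and the C12mimCl and CholCl libraries with the highest levels had the lowest share. CholCl replicate 2 was the exception. It had the lowest level of the set in its group, but its share of 5.51% was below the 5.83% of replicate 1. Between groups the share was highest after C12mimCl and lowest after CholCl, while the set was low in both. Its part in the result was not tested.

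CholCl replicate 3 set the CholCl group apart. In it the genes stood at a median of 14% of the control median, against 3.13% and 1.26% in replicates 1 and 2. Only 132 of the 335 genes were at or under 12.5% of control in that library, against 326 and 335 in CholCl replicates 1 and 2. After C12mimCl, 335, 332 and 292 genes were at or under this limit in replicates 1, 2 and 3, and the medians were 0.977%, 1.04% and 1.51% of control. The higher level in CholCl replicate 3 was also seen in the 83 genes low after CholCl alone. Of those, 17 were at or under the limit in CholCl replicate 3, against 82 and 81 in replicates 1 and 2. Their medians were 23.5% of control in replicate 3, and 6.24% and 5.33% in replicates 1 and 2. Because the choice used the median of 3 libraries, low levels in CholCl replicates 1 and 2 were enough. Without CholCl replicate 3 the rule gave 354 genes, of which 334 were in the set.

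A part of the set was as low in C2mimCl replicate 1 as the limit asked of the other salts. In that library 48 genes (14.3%) were at or under 12.5% of control, with a median of 6.67%. The share was about the same, 14.5%, in the 83 genes low after CholCl alone. It was 7.69% in the 39 low after C12mimCl alone and 0.751% in the 7461 other genes. In C2mimCl replicates 2 and 3 the same 48 genes of the set stood at 267% and 195%. After C12mimCl they were at 2.93%, 1.91% and 11.2% of control. The 43 genes above 12.5% of control in C12mimCl replicate 3 included 22 of these 48, which is 45.8% of the 48 and 51.2% of the 43. These subsets were picked on their values and carry no test. The 138 genes above 50% of control in C2mimCl replicate 1 were at 0.768%, 0.767% and 1.08% of control after C12mimCl and at 1.95%, 1.02% and 16.5% after CholCl.

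Dapma7bEVm016573 had the highest single C12mimCl or CholCl library relative to its control median. It had 9.99, 7.40 and 36.3 CPM in the controls, 1.04, 70.0 and 26.8 CPM after C2mimCl, 0.757, 0.832 and 7.29 CPM after C12mimCl, and 0.886, 0.619 and 5.75 CPM after CholCl. Replicate 3 was the highest library in control, C12mimCl and CholCl.

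The levels left after each salt were then compared between C12mimCl and CholCl. In the quasi-likelihood test of edgeR, with p adjusted by Benjamini-Hochberg over 15847 genes, 125 of the 335 (37.3%) were lower after C12mimCl at an adjusted p below 0.05 and 0 were higher. Only 167 of the 335 passed the filter on low counts with the C12mimCl and CholCl libraries alone. The rest of the set entered this test only through their control and C2mimCl levels, which the choice required to be high. The count of 125 is therefore a description, and nothing is read from its share against that of all genes. Over all genes tested 27.7% were lower and 29.6% higher, 57.3% in all. At an unadjusted p below 0.05, 161 of the set were lower and 0 higher, against 30.2% and 32.4% of all genes tested. On the same filter DESeq2's Wald test called 197 of the 335 (58.8%) lower and 0 higher, against 30.6% and 29.1% of all genes. Genes without an adjusted p there were counted as not called. In limma-voom 4.78% of the set were lower, against 26.7% of all genes. With the 6 compared libraries alone it was 26.9% of the 167 that passed the filter, against 33.0%. In the edgeR fit of 12 libraries the log2 difference had a median of -2.56 over the set and 0.03 over all genes tested. For 210 genes the difference was not called, and for 1 of the 335 its 95% interval lay within 2-fold in either direction, so for the rest a difference of that size was not excluded.

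Among single libraries left out, the median difference shrank most without CholCl replicate 3, and the number of calls also fell without other libraries. Without CholCl replicate 3, 44 genes (13.1%) were lower and 3 (0.896%) higher after C12mimCl (edgeR, adjusted p below 0.05). Of all genes in that fit 23.7% were lower and 25.3% higher. The median fold between the salts was then 2.04 in place of 5.89. The 3 genes, named after their values were seen, were Dapma7bEVm001656, Dapma7bEVm001967 and Dapma7bEVm028512. Without C12mimCl replicate 1, 2 or 3, 52, 57 or 70 were called lower, which is 15.5%, 17% or 20.9% of the set. Of all genes in those fits 22.8%, 23.9% and 23.8% were lower. In limma-voom 16 (4.78%) were lower, against 26.7% of all genes. In the fit of the 6 compared libraries alone 45 (26.9%) were lower of the 167 of the set that passed its filter, against 33.0% of all genes. Of these 45, 35 were among the 125. In these 5 fits, and in the fit without CholCl replicate 3, the share of the set called lower was thus below that of all genes. Without CholCl replicate 1 or 2 it was above, at 143 (42.7%) or 173 (51.6%), against 23.8% and 24.7% of all genes. For 97 genes (29.0%) every C12mimCl library lay below every CholCl library, against 34.1% of the genes tested, which is no larger a share than in the background. The reverse held for 1 gene, against 36.8%. That gene was Dapma7bEVm009551, also named after its values were seen, with 10.9, 16.3 and 11 CPM after C12mimCl and 4.50, 10.2 and 4.55 CPM after CholCl.

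Of the genes lower after C12mimCl, Dapma7bEVm009601 had the smallest p. It had 1010.1, 404 and 962 CPM in the controls, 408, 1161 and 1269 CPM after C2mimCl, 1.39, 1.97 and 1.37 CPM after C12mimCl, and 60.3, 50.6 and 184 CPM after CholCl. The log2 difference between the latter groups was -5.96 with SE 0.722 (edgeR adjusted p = 0.00012). Each CholCl library was far above each C12mimCl library, also without CholCl replicate 3.

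Dapma7bEVm009710 had 125, 59.7 and 86.6 CPM in the controls and 66.3, 78.5 and 75 CPM after C2mimCl. It had 0.315, 0.302 and 0.912 CPM after C12mimCl and 5.98, 8.05 and 23.4 CPM after CholCl, a log2 difference of -4.61 with SE 0.636 (edgeR adjusted p = 0.00025). This gene and the next 3 were likewise apart in every library. Dapma7bEVm015342 had 632, 268 and 520.4 CPM in the controls, 391, 1014 and 1162 CPM after C2mimCl, 1.26, 1.89 and 1.60 CPM after C12mimCl, and 19.8, 25.8 and 98.3 CPM after CholCl (log2 difference -4.92, SE 0.74, edgeR adjusted p = 0.0004).

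Dapma7bEVm009700 had the smallest difference of the 5 genes with the smallest p. Its values were 308, 296 and 212 CPM in the controls, 180.3, 197 and 203 CPM after C2mimCl, 5.36, 8.92 and 6.61 CPM after C12mimCl, and 19.2, 16 and 29.5 CPM after CholCl (log2 difference -1.64, SE 0.26, edgeR adjusted p = 0.00047). Dapma7bEVm002955 had 258, 331 and 163 CPM in the controls, 111, 294 and 319 CPM after C2mimCl, 1.01, 2.80 and 1.60 CPM after C12mimCl, and 13.1, 10.3 and 34.3 CPM after CholCl (log2 difference -3.43, SE 0.623, edgeR adjusted p = 0.0012). All 5 genes kept their call in each alternative fit that was run, with adjusted p of at most 0.013.

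Among the 8 most abundant genes, Dapma7bEVm002066 and Dapma7bEVm029332 were called lower after C12mimCl. Both calls were lost without CholCl replicate 3 and in limma-voom. Their log2 differences were -3.16 and -6.61 (edgeR adjusted p = 0.026 and 0.011), and -0.63 and -1.99 without CholCl replicate 3 (edgeR adjusted p = 0.38 and 0.1). In limma-voom the adjusted p was 0.20 and 0.37. The call of Dapma7bEVm002066 was also lost with the replicate block, with the 6 libraries, without a filter and without C12mimCl replicate 1 or 3. The edgeR adjusted p was then 0.051 to 0.088. Dapma7bEVm029332 kept its call with the replicate block (edgeR adjusted p = 0.043) and without a filter (edgeR adjusted p = 0.025). It had no adjusted p in DESeq2's Wald test or in the fit of the 6 libraries. The other 6 were not called. For Dapma7bEVm001289 the log2 difference was 0.15 with a 95% interval of -1.25 to 1.54, and for Dapma7bEVm015207 it was -0.27 with an interval of -2.65 to 2.11.

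**Figure D5:**
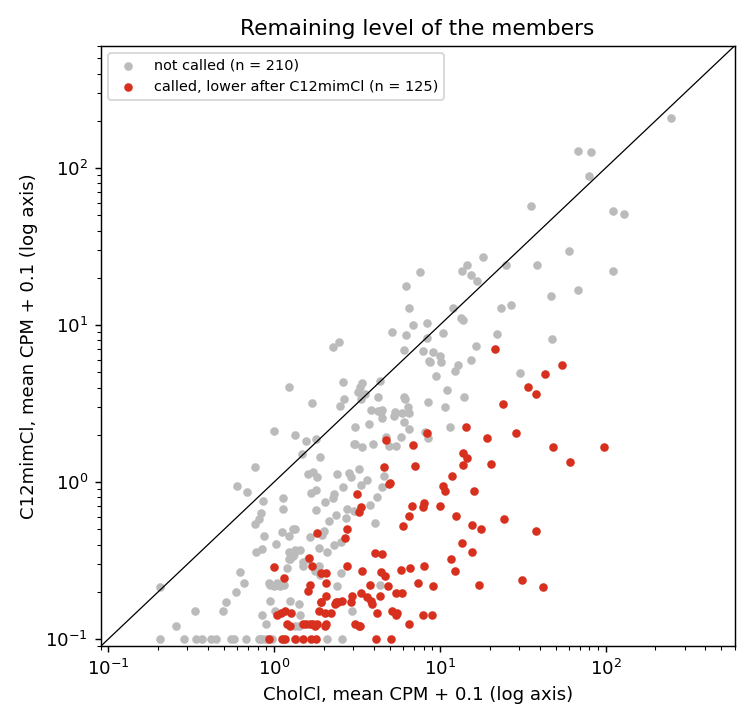
Mean CPM plus 0.1 of each of the 335 genes after CholCl (horizontal, log axis) and after C12mimCl (vertical, log axis), with the line of equal values. Red points are the 125 genes called lower after C12mimCl in the fit of all 12 libraries, and grey points the 210 not called. Most points lie below the line, and those on the lower edge had 0 reads in all 3 C12mimCl libraries.

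At the edge of the set, Dapma7bEVm000655 lay just inside the 12.5% limit, at 12.46% of control after CholCl, with 15.4, 9.56 and 21.1 CPM against 125, 69.9 and 186 CPM in the controls. Dapma7bEVm006765 was just inside at 12.48%. Dapma7bEVm010400 and Dapma7bEVm007228 lay just outside, at 12.59% and 12.67% of control after C12mimCl. At the C2mimCl limit Dapma7bEVm008551, at 49.98% of control, fell just outside, and Dapma7bEVm000651 was at 47.7%. In all, 27 genes met the other limits and were left out for a C2mimCl median of 50% of control or less. By the same limits, 453 genes with C2mimCl above 50% of control were low after C12mimCl and 470 after CholCl. The 335 genes were those low after both.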

How the data were processed

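Raw counts per gene, as the authors deposited them, were used for 12 libraries. Each file has 46334 gene rows, and its 5 summary rows were left out throughout. Per the submitters' processing notes, Trimmomatic 0.39, STAR 2.7.3a and HTSeq were used, and per the labels' protocols the libraries came from a stranded kit and were read as 150 bp pairs. No genome build, annotation or strand setting is stated in these sources, so counts of overlapping, antisense or near-identical genes are uncertain.

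Members were chosen on CPM with edgeR 4.0.16 TMM factors, over 20266 genes with 10 or more reads in total. The members and lists were chosen with earlier results of these data known. The test between C12mimCl and CholCl was edgeR's quasi-likelihood test in R 4.3.3 with robust estimation, 1 mean per group over the 12 libraries and genes kept by filterByExpr (minimum count 10, minimum total 15). It was also run on simulated data, but the differences planted there were smaller than the median difference of this set between C12mimCl and CholCl. Nothing is read from that run for the calls given here. The SE of a difference is its size over the root of its F statistic. DESeq2 1.42.0 and limma-voom 3.58.1 were alternatives, beside other scalings, filters, limits, the replicate number as a block and leaving out each library. No library appeared to be a copy of another of its own group, since the closest pair of replicates differed by 17.4 in chi-square per degree of freedom. Libraries of different groups were not compared in this way. Replicates are separate vessels of the same cultures. Named genes were picked by abundance, by p between C12mimCl and CholCl, by 0 reads, by the C2mimCl ratio and by nearness to a limit, and others are marked as named after their values were seen.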

Additional observations from a re-analysis of the deposited data

How the results depend on the processing

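The number of genes in the set was 335 and stayed within 1.5 times of that under each alternative, from 227 (at most 1/16 of control) to 440 (at most 1/4). It was 254 to 397 with each library left out, 324 with RLE, 291 with upper-quartile and 341 without scaling factors, and 333 when the control minimum was read without the added 0.1 CPM, a choice made after the data were seen. The number called between C12mimCl and CholCl was less stable. All of the 125 were lower after C12mimCl. The count was 77 without a filter on low counts, 197 in DESeq2's Wald test, 16 in limma-voom and 45 in the fit of the 6 compared libraries, where 38.8%, 59.7%, 56.1% and 67.0% of all genes were called in either direction, against 57.3%. Leaving out each library gave 47 to 173 called, and 44 to 173 lower after C12mimCl. The fewest lower, without CholCl replicate 3, were 13.1% of the set, against 23.7% of all genes. The most, without CholCl replicate 2, were 51.6%, against 24.7%. Without both C12mimCl replicate 3 and CholCl replicate 3, added after the data were seen, 33 were called and 31 were lower (9.25% of the set, against 20.4% of all genes). The causes were not tested. The median log2 difference of -2.56 ranged from -2.99 to -1.03 with each library left out, was -1.65 in limma-voom, -1.38 with the 6 libraries and -1.22 without both replicates 3. Genes called over all genes numbered 9075, and 7716 to 10309 with each library left out. The median log2 ratio of C2mimCl to control of 0.73 ranged from 0.21 to 1.00. With the replicate number as a block 107 were called, 101 of them among the 125. All 107 were lower after C12mimCl (31.9% of the set, against 26.8% of all genes). Same-numbered libraries deviated together with r from -0.49 to 0.54, above 0.1 in 11 of 18 pairs. For replicate 3 every r was positive, from 0.17 to 0.54, and for replicates 1 and 2 both signs occurred. The main fit did not take the numbers to pair the samples, and a deviation shared by replicate number was not tested. Of the 13 genes named by abundance or p, uncalled differences changed sign for 2. That of Dapma7bEVm015207 was 0.023 in limma-voom and ranged from -1.45 to 0.68 with each library left out, and that of Dapma7bEVm001289 ranged from -0.23 to 0.70. The genes under 30 CPM in controls had a median of 8.5 reads over the 3 C12mimCl libraries together, whose part in the calls was not tested.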
